A study of Mus musculus with 4 samples.

Results

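The 42 genes described here encode the machinery by which a cell makes proteins for export, and the factors that adjust this machinery when unfolded protein builds up in the endoplasmic reticulum (ER). They were taken as a named list, 42 of the 31053 genes in the deposited matrix, and each had at least 20 UMIs (unique molecular identifiers, each standing for 1 captured RNA molecule) over the kept cells. They were followed across plasma cells, osteoblasts, granule-making neutrophil stages and other cell classes of trabecular bone. The cells came from proximal and distal tibia of mice at 8 weeks and were freed with dispase, collagenase and trypsin before droplet RNA sequencing on the 10x Genomics platform. All mice form 1 group with no PTH (parathyroid hormone). They carried Col10a1Cre and Rosa26-Tdtomato, were Irx3 +/Δ and Irx5 +/-, and are labelled as the heterozygous control, so every cell below shares these alleles. Col10a1-Cre is driven by a gene of hypertrophic chondrocytes, the cartilage cells that precede bone at the growth plate.

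A secreted protein enters the ER through the Sec61 channel while it is being translated, loses its signal peptide to signal peptidase, and is folded by chaperones, lectins and enzymes that form disulfide bonds. Chains that fail to fold are drawn back to the cytosol and destroyed, a route called ER-associated degradation. When unfolded chains accumulate, the sensors IRE1, ATF6 and PERK raise this capacity through the transcription factors XBP1, ATF6 and ATF4, and prolonged PERK signalling induces CHOP, the product of Ddit3. XBP1 is required for plasma cells, which secrete antibody, and osteoblasts secrete collagen, while neutrophil precursors load their granules with proteins that pass through the same route.

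The sensors act in part through a promoter element, the ER stress response element (ERSE), which pairs a CCAAT box with a site for ATF6 and XBP1. Promoter sequences from RefSeq (GRCm38.p6) were found for 34 of the 42 genes. The exceptions were Ssr2, Mzb1, Hyou1, Sec61a1, Atf6, Manf, Tram1 and Derl1. Among the 250 bases before the annotated start, searched on both strands, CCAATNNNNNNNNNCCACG was found in 9 of the 34 genes (26.5%) and in 35 of all 27025 genes with a promoter sequence (0.130%). These elements are printed because their share among the 34 genes was above that among all genes, although most of the 34 genes lack the element. The first letters in capitals are the CCAAT box and the last are CCACG, and the strand follows each position. The last entry is the related ERSE-II element, ATTGG and CCACG with 1 base of any kind between them. It was found in 1 of the 34 genes, Herpud1, and in 10 of all genes (0.0370%).
Hspa5 (chr2:34772025-34772043, +): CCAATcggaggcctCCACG
Calr (chr8:84847075-84847093, +): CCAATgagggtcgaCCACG
Derl3 (chr10:75893242-75893260, -): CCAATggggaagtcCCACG
Hsp90b1 (chr10:86705638-86705656, -): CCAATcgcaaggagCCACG
Hsp90b1, second element (chr10:86705533-86705551, +): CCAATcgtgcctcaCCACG
Canx (chr11:50325800-50325818, -): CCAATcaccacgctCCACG
Pdia6 (chr12:17266491-17266509, +): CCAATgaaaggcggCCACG
Ero1lb (chr13:12565682-12565700, -): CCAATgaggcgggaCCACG
Dnajc3 (chr14:118937827-118937845, +): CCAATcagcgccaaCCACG
Creld2 (chr15:88819520-88819538, -): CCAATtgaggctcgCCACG
Herpud1, ERSE-II (chr8:94386377-94386387, +): ATTGGgCCACG

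Hspa5, which encodes the main ER chaperone BiP, was the only one of the 34 genes that also held TGACGTG, the core of the XBP1-binding UPR element, which was found in 499 of all genes (1.85%). Its 250 bases upstream of the RefSeq start are printed whole, with TGACGTG and the ERSE in capitals. The GENCODE annotation, used for gene positions below, starts this gene earlier, at chr2:34771970. The end of the stretch, with the ERSE, therefore lies within the gene as given there.
Hspa5 promoter (chr2:34771840-34772089, +): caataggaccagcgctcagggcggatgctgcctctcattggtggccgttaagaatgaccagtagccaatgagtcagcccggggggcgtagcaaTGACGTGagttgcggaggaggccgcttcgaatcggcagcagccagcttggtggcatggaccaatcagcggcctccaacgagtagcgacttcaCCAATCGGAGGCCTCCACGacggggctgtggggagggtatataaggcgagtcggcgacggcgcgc
The Derl3 promoter is shown beside it because Derl3, a derlin of the degradation channel, had the largest plasma cell ratio of the 42 genes. Its ERSE lies on the opposite strand, so the capitals read as its reverse complement.
Derl3 promoter (chr10:75893148-75893397, +): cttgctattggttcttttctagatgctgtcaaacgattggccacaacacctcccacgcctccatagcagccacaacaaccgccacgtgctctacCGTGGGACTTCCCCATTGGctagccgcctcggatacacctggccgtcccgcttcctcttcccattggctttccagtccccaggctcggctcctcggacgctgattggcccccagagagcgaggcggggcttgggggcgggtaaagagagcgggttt
The bare CCAAT box, which is part of every ERSE, was in 26 of the 34 promoters (76.5%) and in 10133 of all promoters (37.5%). A match describes these letters only, and no binding was measured.

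The deposited matrix holds 4 sample records in 1 library without labels that tie a cell to a record. All values therefore come from 1 library, differences between animals could not be tested. Intervals are at 95% and reflect counting error alone. The matrix had 15014 barcodes, none repeated, and 90273806 UMIs, with a median of 3812 per barcode. After filtering, 10485 cells in 31 clusters remained. Clusters were named "X-like" from marker genes, with the 42 genes kept out of the clustering. The plasma-like class (49 cells, median 17728 UMIs) held UMIs of all 8 plasma cell markers, which summed to 218955 CPM (the usual scaling of UMIs, here to the total of the class), and 0 UMIs of the 6 T cell markers. The osteoblast-like class (14 cells, median 24092 UMIs) held all 7 osteoblast markers and 0 UMIs of Jchain. Its cells had from 60 to 4545 UMIs of Col1a1 and from 4 to 5415 UMIs of Bglap. The azurophil progenitor-like class (390 cells) was led by Elane, Prtn3 and Mpo, enzymes of the first neutrophil granules, and also held specific granule markers of the next stage at 38026 CPM.

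Plasma-like cells gave the 42 genes the largest share of their RNA of the 19 named classes, 2.13% of UMIs. The next were basophil-like (0.964%), plasmacytoid dendritic-like (0.954%), azurophil progenitor-like (0.937%) and osteoblast-like cells (0.858%). The lowest was 0.161%, in late erythroid-like cells, in which haemoglobin genes made up 76.3% of UMIs. These are shares of the summed UMIs of each class. By the median over cells, basophil-like cells had 0.680%, below plasmacytoid dendritic-like (0.987%), azurophil progenitor-like (0.911%) and osteoblast-like cells (0.804%). With immunoglobulin and haemoglobin genes left out of the totals, the share was 4.58% in plasma-like cells and 0.680% in late erythroid-like cells, and mature neutrophil-like cells were lowest, at 0.288%. Plasma-like cells had the highest level of 24 of the 42 genes, against 2.14% of all 13615 genes, and for 21 of these the interval was clear of the next class. Osteoblast-like cells came first for 6 genes (9.09% of all genes) and azurophil progenitor-like cells for 2 (2.31%). Late erythroid-like cells came last without a tie for 32 (35.0%). These ranks depend on the scale. On the scale without immunoglobulin and haemoglobin genes, plasma-like cells came first for 38 genes (9.31% of all genes), osteoblast-like cells for P4hb and azurophil progenitor-like cells for 0, and late erythroid-like cells came last for 5 and mature neutrophil-like cells for 18.

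**Figure D1:**
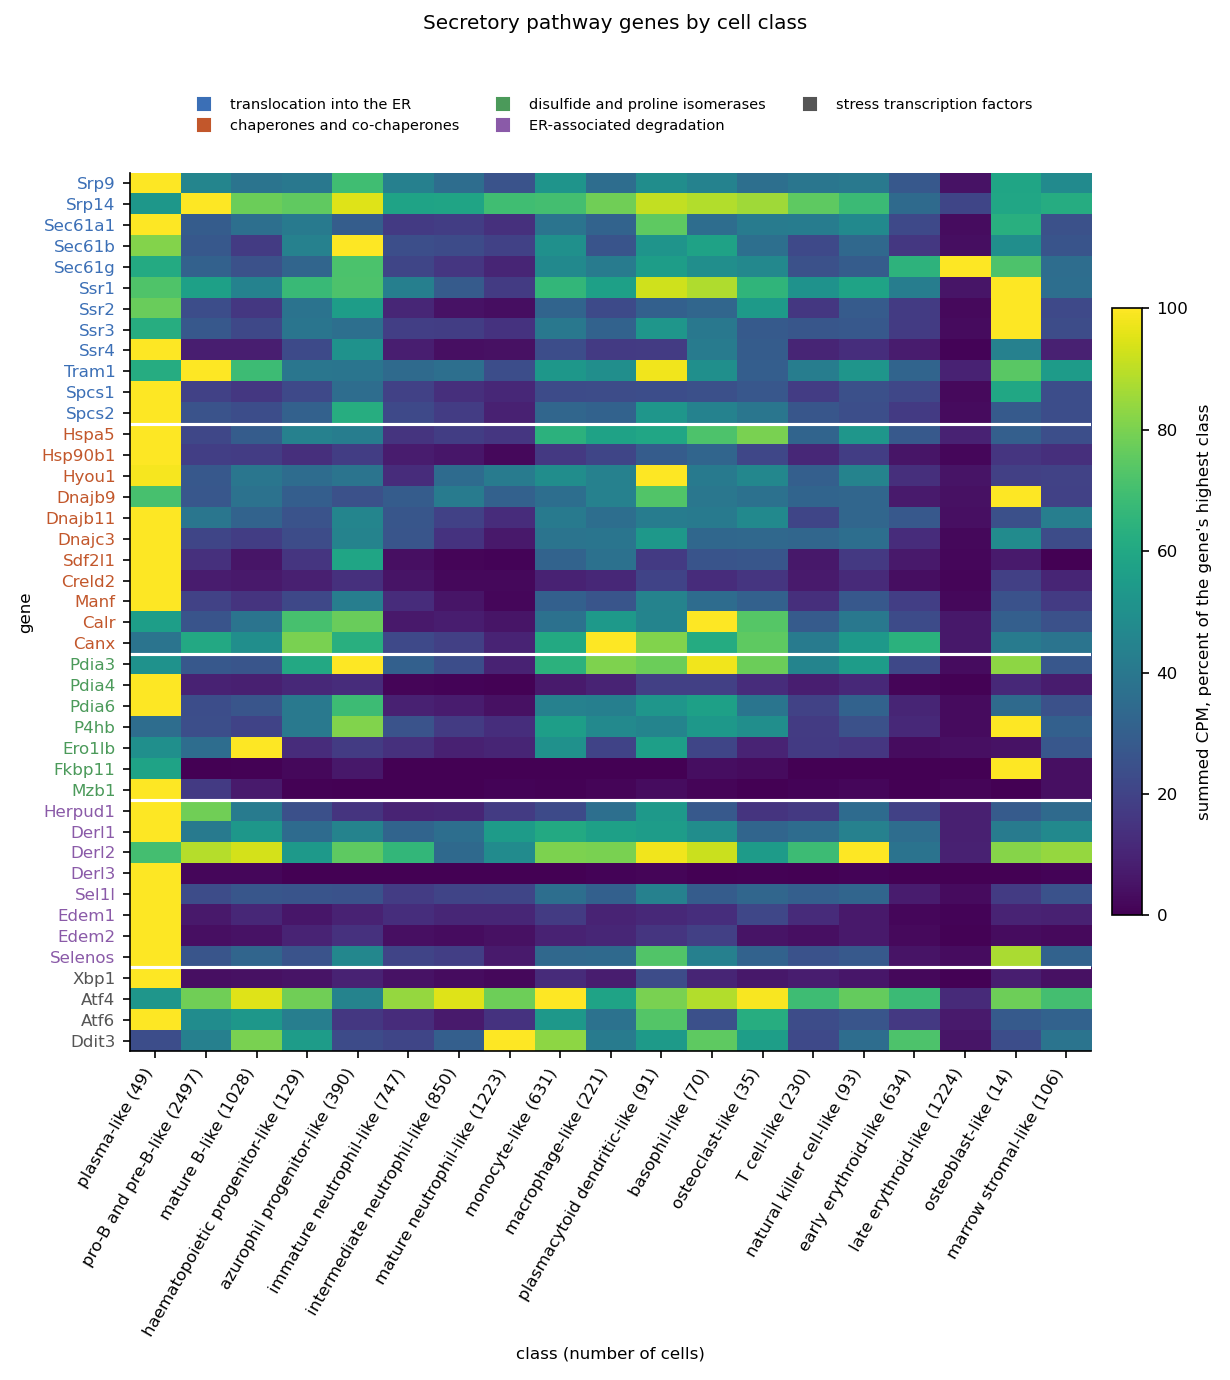
Heat map of the 42 genes (rows, coloured by role) across 19 named classes (columns, number of cells in brackets), each cell showing the summed CPM as a percent of that gene's highest class. The plasma-like column is the brightest for 24 genes, the osteoblast-like column for 6, and the late erythroid-like column is the darkest without a tie for 32.

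In plasma-like cells, 31 of the 42 genes were at least 2-fold higher than in all other kept cells and 0 were at least 2-fold lower. Over all 13615 genes compared, 8.16% were at least 2-fold higher and 41.7% at least 2-fold lower. The median log2 ratio was 1.82 for the 42 genes and -0.76 for all genes. Immunoglobulin UMIs, 52.7% of the plasma-like total, bear on this scale. With immunoglobulin and haemoglobin genes left out, the 42 genes numbered 38 higher and 0 lower, with a median of 2.74, while all genes numbered 23.9% higher and 18.5% lower, with a median of 0.15. Late erythroid markers (haemoglobin and related genes) stood at 8422 CPM and immature neutrophil markers at 208 CPM in plasma-like cells, and their part in the result was not tested.

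ER-associated degradation held the largest ratio. Derl3 had 236 UMIs and 262 CPM in plasma-like cells and 1.596 CPM in the other cells, 164-fold higher (interval 131 to 207). This gene, at chr10:75893413-75895941 on the plus strand, ranked next in pro-B and pre-B-like cells, where it had 4.52 CPM. Edem2 and Edem1, which take part in trimming mannose from misfolded glycoproteins, were 17.7-fold (15.6 to 20.1) and 11.4-fold (10.4 to 12.5) higher. Edem2 had 337 CPM in plasma-like cells and 19.0 CPM in the others, and Edem1 602 and 52.7 CPM. Sel1l, the adaptor of the HRD1 ubiquitin ligase, had 163 CPM in plasma-like cells against 33.9 CPM, Selenos, a derlin partner, 352 against 84.5 CPM, and Herpud1, a scaffold of the degradation complex, 747 against 227 CPM. Derl1 had 177 against 68.7 CPM. In all, 7 of the 8 degradation genes passed 2-fold, and Derl2, at 38.8 against 34.9 CPM, did not.

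Of the 7 genes grouped as isomerases, which include a cochaperone and an oxidase, 5 were at least 2-fold higher. Fkbp11, a proline isomerase of the ER membrane at chr15:98724366-98728198 on the minus strand, had 201 CPM in plasma-like cells and 5.18 CPM in the others, 38.8-fold higher (32.3 to 46.4). Mzb1, a B-lineage cochaperone that aids antibody assembly, had 2373 CPM in plasma-like cells and 106 CPM in the others, 22.3-fold higher (21.3 to 23.4). Pdia4, a disulfide isomerase, had 417 CPM in plasma-like cells and 25.6 CPM in the others, 16.3-fold higher (14.5 to 18.2). The other genes past 2-fold were Pdia6, a disulfide isomerase at 444 against 108 CPM, and Ero1lb, the oxidase that recharges these isomerases, at 58.8 against 28.7 CPM. Pdia3, which works with the lectin chaperones, had 147 against 111 CPM, and P4hb, protein disulfide isomerase itself, 122 against 103 CPM, neither past 2-fold.

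Of the chaperones, 9 of 11 were at least 2-fold higher. Creld2, a small ER protein induced by stress, had 226 CPM in plasma-like cells and 15.4 CPM in the others, 14.7-fold higher (12.6 to 17.0). Hsp90b1, the ER form of HSP90, had 3109 against 380 CPM, and Hspa5, at chr2:34771970-34777547 on the plus strand, 1405 against 399 CPM. The BiP cofactors were Dnajc3 at 340 against 77.8 CPM, Dnajb11 at 198 against 59.1 CPM, Dnajb9 at 119 against 44.7 CPM, and the exchange factor Hyou1 at 58.8 against 16.8 CPM. Sdf2l1, a partner of Dnajb11, had 233 against 36.1 CPM, and Manf, a stress-induced ER protein, 714 against 133 CPM. The exceptions on the scale of all UMIs were the lectin chaperones that bind sugar-tagged chains. Calr had 574 CPM in plasma-like cells and 297 CPM in the others, and Canx had 184 CPM in plasma-like cells and 213 CPM in the others, a ratio of 0.865 (0.737 to 1.01).

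Entry into the ER showed 8 of 12 genes higher. Ssr4, a subunit of the TRAP complex beside the channel, had 1497 CPM in plasma-like cells and 213 CPM in the others, 7.04-fold higher. Of its TRAP partners, Ssr2 (204 against 57.4 CPM) and Ssr3 (289 against 113 CPM) passed 2-fold, and Ssr1 (146 against 94.5 CPM) did not. The signal peptidase subunits Spcs1 (396 against 76.2 CPM) and Spcs2 (594 against 153 CPM) passed it, as did the channel subunits Sec61a1 (212 against 53.3 CPM) and Sec61b (1065 against 432 CPM), while the channel subunit Sec61g had 456 against 334 CPM. The signal recognition particle subunits differed from each other, with Srp9 at 524 CPM in plasma-like cells against 208 CPM and Srp14 at 120 against 156 CPM, a ratio of 0.767 (0.629 to 0.927). Tram1, a membrane protein beside the channel, had 191 against 154 CPM.

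Among the transcription factors, Xbp1 and Atf6 passed 2-fold and Atf4 and Ddit3 did not. Xbp1, at chr11:5520659-5525893 on the plus strand, had 1356 UMIs and 1504 CPM in plasma-like cells and 78.3 CPM in the others, 19.2-fold higher (18.1 to 20.4). The counts do not separate its spliced form. Atf6, the membrane-bound sensor, had 140 CPM in plasma-like cells and 39.6 CPM in the others, 3.53-fold higher (2.93 to 4.22). Atf4, the PERK arm factor, had 294 CPM in plasma-like cells and 392 CPM in the others, a ratio of 0.750 (0.662 to 0.846). Ddit3 had 68.7 CPM in plasma-like cells and 124 CPM in the others, a ratio of 0.553 (0.424 to 0.710). Whether the ratios of Canx, Srp14, Atf4 and Ddit3 were below 1 depended on the scale. Once immunoglobulin and haemoglobin genes were left out, their log2 ratios were 0.71, 0.54, 0.51 and 0.08, against a median of 0.15 over all genes. On that scale the other genes given above as not past 2-fold did pass it. These were Calr (1.87), Ssr1 (1.56), Sec61g (1.37), Pdia3 (1.33), Tram1 (1.23), P4hb (1.16) and Derl2 (1.09).

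**Figure D2:**
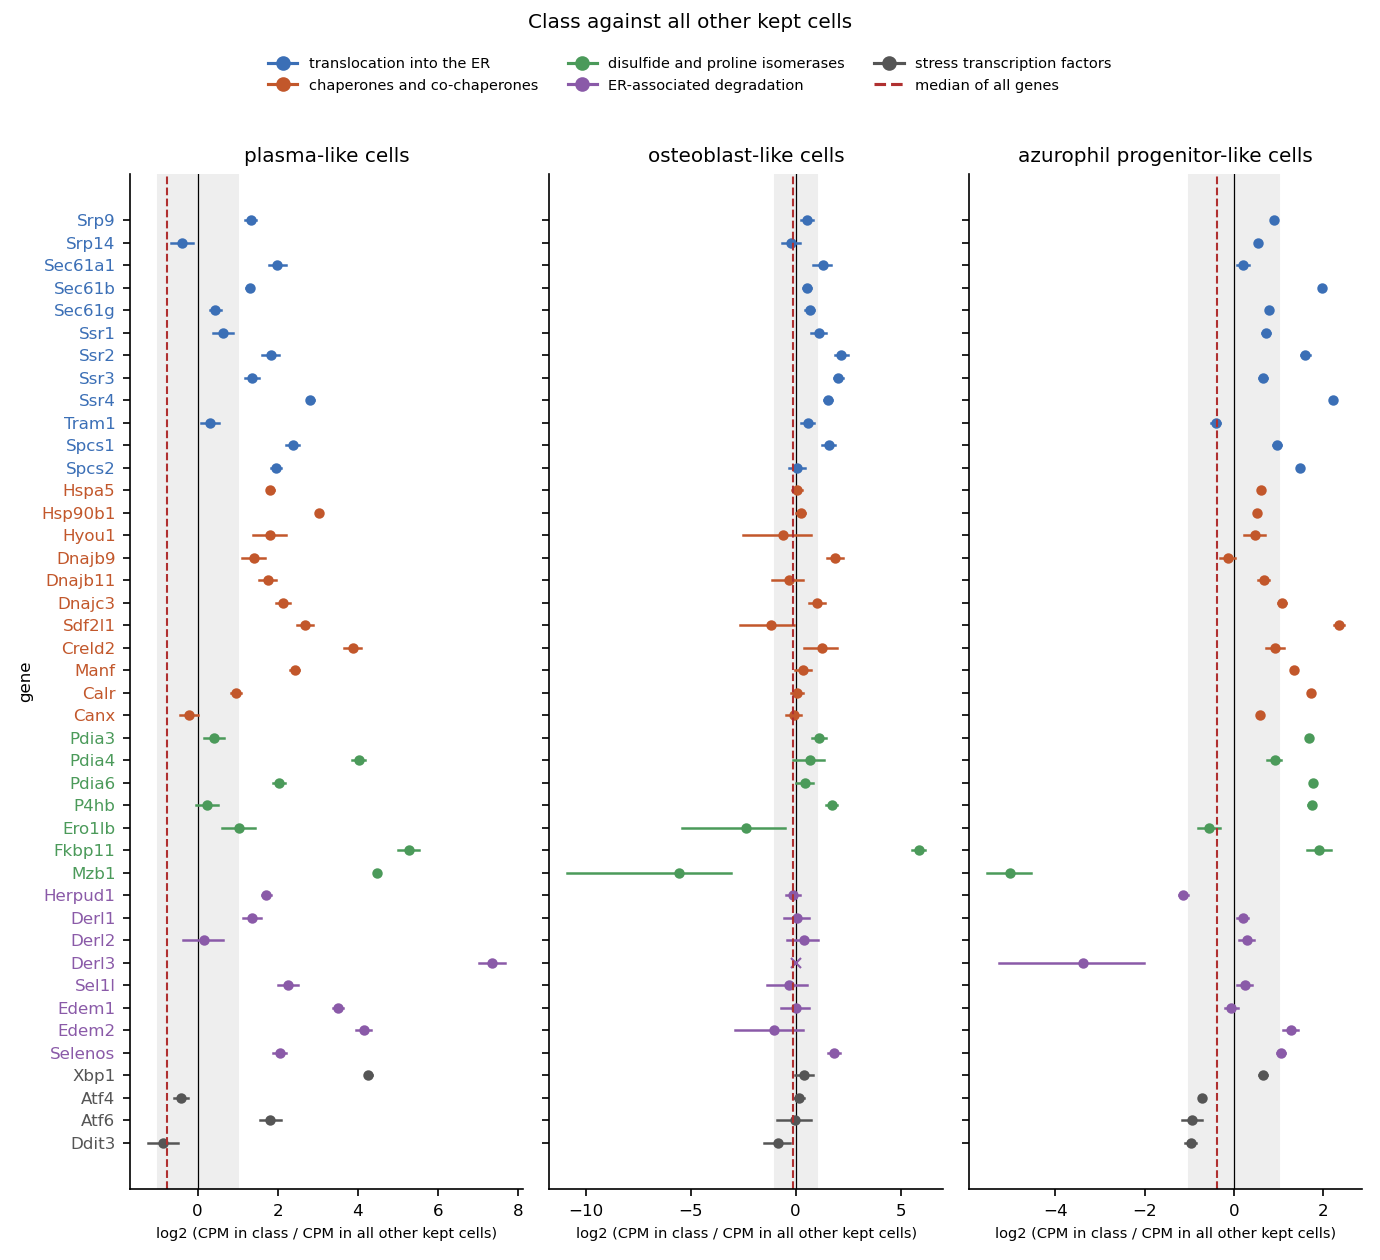
Log2 ratio of CPM in each class to CPM in all other kept cells for the 42 genes (rows, coloured by role), with bars for the 95% counting interval, a grey band for less than 2-fold, a red dashed line for the median of all genes and a cross for a gene with 0 UMIs in the class. Derl3 stands at 7.35 and Ddit3 at -0.84 in plasma-like cells, Fkbp11 at 5.86 in osteoblast-like cells and Sdf2l1 at 2.36 in azurophil progenitor-like cells.

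Set against the rest of the B lineage, from which plasma cells arise, most of the genes were again higher. Of the 42 genes, 30 were at least 2-fold higher in plasma-like cells than in other B-lineage cells and 1 was at least 2-fold lower, against 6.19% and 60.1% of all 11204 genes compared. Fkbp11 had 201 CPM in plasma-like cells and 1.51 CPM in other B-lineage cells, 133-fold higher (89.1 to 206), and was the largest ratio. Derl3 was 58.6-fold higher (45.4 to 76.1), at 262 against 4.47 CPM. Mzb1 was already present in the B lineage, at 363 CPM against 2373 CPM in plasma-like cells, and its ratio was 6.54 (6.22 to 6.86).

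The stress factor Xbp1 was 24.1-fold higher (22.3 to 26.1) than in other B-lineage cells, at 1504 against 62.4 CPM. The mannose-trimming genes Edem2 (23.0-fold, 19.5 to 27.2) and Edem1 (13.2-fold, 11.8 to 14.7) the chaperone Creld2 (13.2-fold, 11.0 to 15.8), the TRAP subunit Ssr4 (12.2-fold, 11.4 to 13.01) and the isomerase Pdia4 (10.7-fold, 9.39 to 12.1) followed. Herpud1, which was 3.29-fold higher against all other cells, was 1.40-fold higher (1.29 to 1.51) here, and pro-B and pre-B-like cells had 586 CPM of it. Atf6 was 2.03-fold higher (1.68 to 2.44). At the low end, Tram1 had a ratio of 0.658 (0.562 to 0.766), Atf4 of 0.647 (0.570 to 0.731), Srp14 of 0.554 (0.453 to 0.670) and Ddit3 of 0.473 (0.361 to 0.608). With immunoglobulin and haemoglobin genes left out, 36 genes were at least 2-fold higher and 0 lower, and the median over all genes was -0.19, beside -1.28 with them in the totals. On that scale the log2 ratios of Tram1, Atf4, Srp14 and Ddit3 were 0.49, 0.46, 0.24 and 0.017, so none was below 1 in ratio and Ddit3 was close to equal. Intervals were not computed on that scale.

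Single plasma-like cells varied widely, also in depth, from 826 to 40539 UMIs. The 42 genes made up 1.61% to 11.5% of each cell's UMIs outside immunoglobulin and haemoglobin genes, with a median of 4.37%. A cell held UMIs of 3 to 42 of the genes, with a median of 38, and the cell with 3 was the one of 826 UMIs. Xbp1 and Mzb1 had a UMI in all 49 cells, from 173 to 3730 CPM for Xbp1 and from 151 to 9234 CPM for Mzb1. Derl3 had a UMI in 44 of 49 cells (89.8%, exact interval 77.8% to 96.6%) and in 3 of 1224 late erythroid-like cells (0.245%), a class that should lack it, at median depths of 17728 and 6168 UMIs. After each cell was thinned to 1000 UMIs, Derl3 was seen in 12.5% (4.73% to 25.3%) of plasma-like cells and in 0 of 1217 late erythroid-like cells. Xbp1 was then seen in 72.9% (58.2% to 84.7%) of plasma-like cells and in 0.657% of late erythroid-like cells. Here and below, the thinned UMIs include haemoglobin, 76.3% of late erythroid-like UMIs, and immunoglobulin, 52.7% of plasma-like UMIs. The UMIs left for other genes therefore differed between classes. Hspa5 ranged from 0 to 8156 CPM between cells and Hsp90b1 from 0 to 20107 CPM. The Hspa5 zeros were in the shallowest cells, of 3254, 2395 and 826 UMIs, and the Hsp90b1 zero was in the last of these. Over the 49 cells, the share of the 42 genes had a Spearman rho of -0.14 with the immunoglobulin share and -0.29 with the UMIs of the cell. All cells share 1 library, so these are descriptions.

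**Figure D3:**
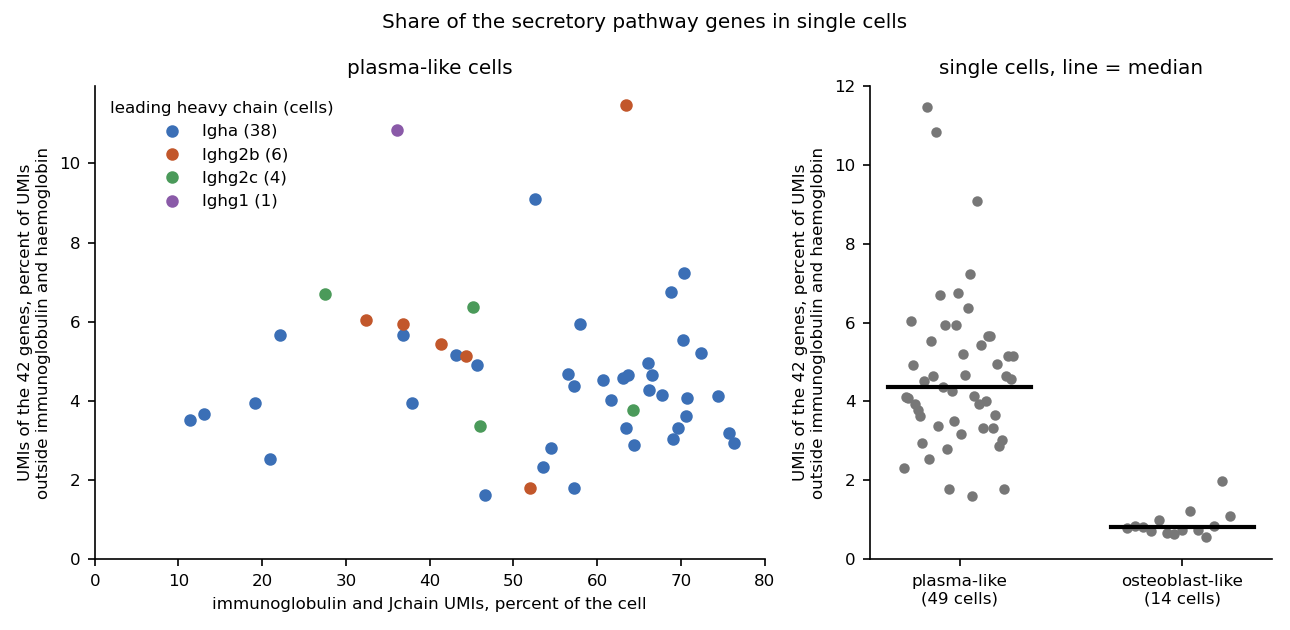
Left, each plasma-like cell by its immunoglobulin and Jchain share of UMIs (x axis) and the share of the 42 genes among its other UMIs (y axis), coloured by its most abundant heavy chain gene. Right, the same share in 49 plasma-like and 14 osteoblast-like cells with the median as a line, 4.37% and 0.804%.

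In osteoblast-like cells, 13 of the 42 genes were at least 2-fold higher than in all other kept cells (31.0%) and 4 at least 2-fold lower (9.52%). Derl3, 1 of the 4, had 0 UMIs and passed only through the 0.5 counts added, so 3 rest on a measured ratio. Over all genes compared, 25.6% were higher and 27.5% lower, so the share of higher genes was near the background. The median log2 ratio was 0.39 for the 42 genes and -0.13 for all genes. These counts were not stable: with immunoglobulin and haemoglobin genes left out of the totals there were 10 higher and 6 lower, with the 50 most abundant genes left out 8 and 6, and with a mitochondrial limit of 5% the class held 67 cells, of which 4 were among the 14, and 5 genes were higher. The values below therefore describe these 14 cells.

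By role, 6 of the 13 higher genes belong to ER entry, 3 are chaperones, 3 isomerases and 1 a degradation gene. Ssr2 had 93 UMIs and 264 CPM in osteoblast-like cells and 58.2 CPM in the others, 4.53-fold higher (3.65 to 5.57). Ssr3 had 465 CPM in osteoblast-like cells and 113 CPM in the others, 4.11-fold higher (3.50 to 4.80). Ssr4 had 658 CPM in osteoblast-like cells and 226 CPM in the others, 2.91-fold higher (2.54 to 3.31), and Ssr1 had 201 against 94.6 CPM, so all 4 TRAP subunits passed 2-fold on this scale. On the scale without immunoglobulin and haemoglobin genes, Ssr1, at a log2 ratio of 0.91, did not, nor did Pdia3 (0.93) and Dnajc3 (0.85), which are given next. Spcs1 had 236 CPM in osteoblast-like cells and 79.4 CPM in the others, 2.97-fold higher (2.36 to 3.68), and Sec61a1 had 133 against 54.9 CPM. Spcs2, its signal peptidase partner, had 167 against 159 CPM.

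Fkbp11 had the largest ratio, as it had in plasma-like cells against the B lineage. It had 122 UMIs and 346 CPM in osteoblast-like cells and 5.96 CPM in the others, 58.1-fold higher (47.1 to 71.2). P4hb, which is also the beta subunit of the enzyme that hydroxylates collagen prolines, had 341 CPM in osteoblast-like cells and 102 CPM in the others, 3.32-fold higher (2.75 to 3.98). Pdia3 had 241 against 111 CPM. The BiP cofactor Dnajb9 had 167 CPM in osteoblast-like cells and 45.0 CPM in the others, 3.72-fold higher (2.82 to 4.81), and Selenos had 306 CPM in osteoblast-like cells and 86.7 CPM in the others, 3.53-fold higher (2.89 to 4.27). The chaperones Creld2 (42.6 against 17.9 CPM) and Dnajc3 (165 against 80.6 CPM) also passed 2-fold.

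Hspa5, Calr and 3 of the 4 stress factors had intervals that include a ratio of 1, and Ddit3 did not. Hspa5 had 426 CPM in osteoblast-like cells and 411 CPM in the others, and Calr 312 and 299.9 CPM. Xbp1 had 128 CPM in osteoblast-like cells and 95.9 CPM in the others, a ratio of 1.33 (0.970 to 1.78). Atf4 had a ratio of 1.11 (0.943 to 1.30), Atf6 of 0.973 (0.531 to 1.64) and Ddit3, at 68.1 against 124 CPM, of 0.550 (0.352 to 0.819). The lowest genes rested on few UMIs. Sdf2l1 had 6 UMIs and a ratio of 0.440 (0.161 to 0.959), Ero1lb 2 UMIs and 0.194 (0.0235 to 0.703), and Mzb1, a B-lineage gene, 1 UMI and 0.0210 (0.00053 to 0.117). Derl3 had 0 UMIs, and 3 counts, the limit that 0 allows, would be 8.51 CPM in this class, above the 4.86 CPM of the other cells.

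Of the 14 osteoblast-like cells, 12 had a UMI of Fkbp11 (85.7%, exact interval 57.2% to 98.2%), against 0 of 1224 late erythroid-like cells, which allows up to 0.301% of those cells to have a UMI and sets no limit on expression. Thinned to 1000 UMIs, it was seen in 35.7% (12.8% to 64.9%) of the 14 cells and in 0 of 1217 late erythroid-like cells. A single cell gave 46 of the 122 Fkbp11 UMIs. It was also highest in Ssr3 (26 UMIs), P4hb (19 UMIs) and Hsp90b1 (41 UMIs), and the 42 genes made up 1.98% of its UMIs, against a median of 0.804% over the class. Another cell had 194 S100a8 UMIs, a neutrophil RNA, with 60 UMIs of Col1a1 and 0 of Fkbp11. Without that cell the counts stayed at 13 higher and 4 lower.

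Set directly against each other, 22 of the 42 genes were at least 2-fold higher in plasma-like than in osteoblast-like cells and 1 was at least 2-fold lower, against 13.2% and 30% of the 4959 genes compared. Mzb1 had 2373 CPM in plasma-like cells and 2.84 CPM in osteoblast-like cells. Edem2 had 337 CPM in plasma-like cells and 11.4 CPM in osteoblast-like cells, 29.7-fold higher (11.5 to 110), and Sdf2l1 233 and 17.0 CPM, 13.7-fold higher (6.18 to 37.7). Xbp1 was 11.8-fold higher (8.75 to 16.2), Edem1 10.1-fold (6.54 to 16.5), Pdia4 8.64-fold (5.33 to 14.99) and Hsp90b1 6.41-fold (5.49 to 7.52). The gene that was at least 2-fold lower was P4hb, with 122 CPM in plasma-like cells and 341 CPM in osteoblast-like cells, a ratio of 0.358 (0.274 to 0.468). Fkbp11 had 201 CPM in plasma-like cells and 346 CPM in osteoblast-like cells, a ratio of 0.580 (0.458 to 0.735), and Ssr3 289 and 465 CPM, a ratio of 0.622 (0.510 to 0.761). With immunoglobulin and haemoglobin genes left out, 29 genes were higher and 0 lower. On that scale Fkbp11 had a log2 ratio of 0.31, Ssr3 of 0.42 and P4hb of -0.38. Intervals were not computed on that scale, so no direction is read from these 3 values.

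**Figure D4:**
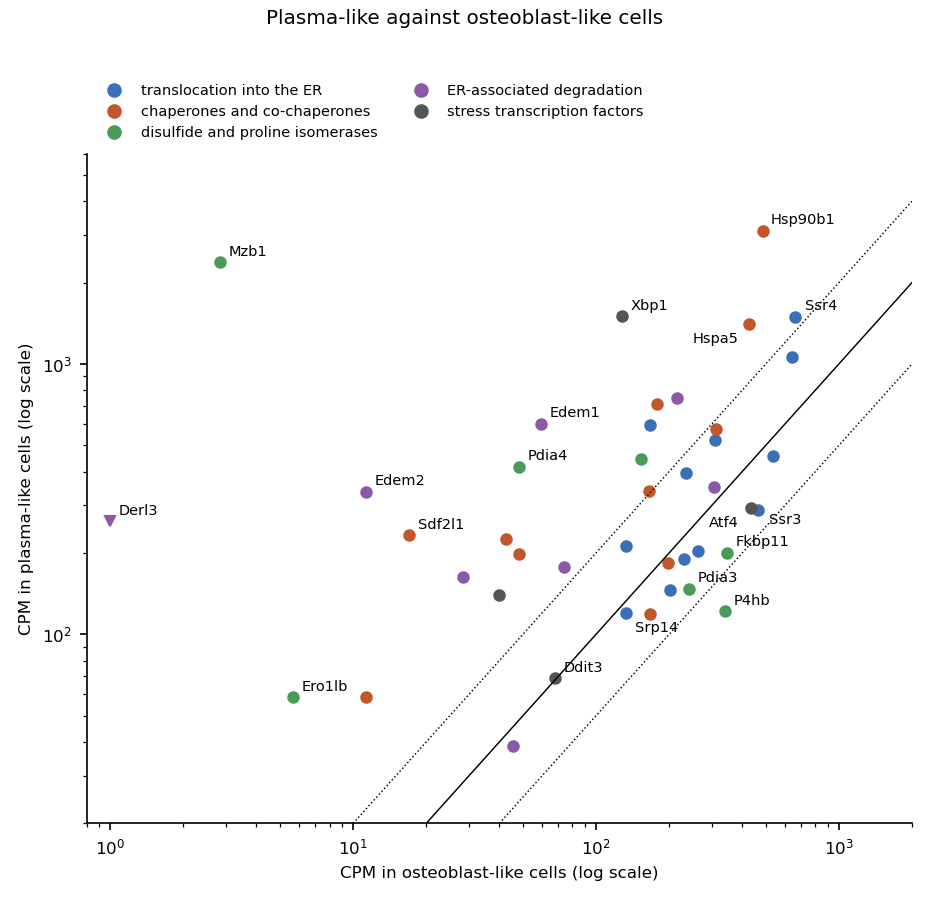
CPM of the 42 genes in plasma-like (y axis) and osteoblast-like cells (x axis), both on log scales, coloured by role, with equality as a solid line, 2-fold as dotted lines, and a triangle at 1 CPM for Derl3, which had 0 UMIs in osteoblast-like cells. Mzb1, Derl3, Edem2 and Xbp1 lie far above the line and P4hb lies below the lower dotted line.

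In azurophil progenitor-like cells, which fill the first granules with proteases and peroxidase, 14 of the 42 genes were at least 2-fold higher than in all other kept cells (33.3%) and 3 at least 2-fold lower (7.14%). The background was 7.59% higher and 31.2% lower over all genes. The median log2 ratio was 0.66 for the 42 genes and -0.39 for all genes. Once immunoglobulin and haemoglobin genes were left out there were 12 higher and 5 lower. Sdf2l1 had 1067 UMIs and 137 CPM in azurophil progenitor-like cells and 26.7 CPM in the others, 5.12-fold higher (4.74 to 5.52). Ssr4 had 766 CPM in azurophil progenitor-like cells and 164 CPM in the others, 4.68-fold higher (4.53 to 4.83), and Sec61b 1305 and 335 CPM, 3.90-fold higher (3.80 to 3.99).

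By role, 4 of the 14 higher genes belong to ER entry, 4 are chaperones, 4 isomerases and 2 degradation genes. Fkbp11 had 22.0 CPM in azurophil progenitor-like cells and 5.87 CPM in the others, 3.75-fold higher (3.12 to 4.51). The disulfide isomerases Pdia6 (304 against 89.5 CPM), P4hb (276 against 82.8 CPM) and Pdia3 (290 against 90.2 CPM) were 3.40-fold (3.24 to 3.57), 3.33-fold (3.17 to 3.50) and 3.22-fold (3.06 to 3.38) higher, and Calr, at 791 against 241 CPM, 3.28-fold (3.19 to 3.38). Of these, Calr, P4hb and Pdia3 had not passed 2-fold in plasma-like cells on the scale of all UMIs, but did with immunoglobulin and haemoglobin genes left out, at log2 ratios of 1.87, 1.16 and 1.33. Sdf2l1 had a UMI in 294 of 390 azurophil progenitor-like cells (75.4%) and in 20 of 1224 late erythroid-like cells (1.63%), at median depths of 19058.5 and 6168 UMIs. Thinned to 1000 UMIs, the shares were 9.38% (6.65% to 12.7%) and 0.164%.

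The stress factors again differed. Xbp1 had 142 CPM in azurophil progenitor-like cells and 90.6 CPM in the others, a ratio of 1.56 (1.46 to 1.67). Atf4 had 249 against 408 CPM, a ratio of 0.611 (0.583 to 0.640), Atf6 22.6 against 43.0 CPM, a ratio of 0.524 (0.448 to 0.611), and Ddit3 66.5 against 130 CPM, a ratio of 0.510 (0.465 to 0.557). The 3 genes past 2-fold on the low side were Herpud1, with 113 CPM in azurophil progenitor-like cells and 248 CPM in the others, Derl3, with 4 UMIs and a ratio of 0.0956 (0.0259 to 0.247), and Mzb1, with 36 UMIs and a ratio of 0.0307 (0.0215 to 0.0425).

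Immature neutrophil-like cells, which make the specific granules, did not share this. Of the 42 genes, 0 were at least 2-fold higher than in all other kept cells and 15 at least 2-fold lower (35.7%), beside 5.06% and 44.7% of all genes. The median log2 ratio was -0.70 for the 42 genes and -0.83 for all genes. With the 50 most abundant genes left out of the totals, 9 were lower, and the medians were -0.38 and -0.50. With immunoglobulin and haemoglobin genes left out, 19 were lower, and the medians were -0.92 and -1.04. The count of lower genes therefore depended on the scale. The highest ratios were those of Edem1, at 79.6 against 56.6 CPM (1.41, interval 1.30 to 1.52), and Atf4, at 468 against 379 CPM (1.24, interval 1.196 to 1.28). Dnajc3, Dnajb9, Srp9, Derl2, Spcs1 and Ssr1 had ratios between 0.901 and 1.12. Calr, at 68.1 CPM in immature neutrophil-like cells and 334 CPM in the others, had a ratio of 0.204 (0.188 to 0.220). Pdia4 had a ratio of 0.176 (0.133 to 0.230) and Mzb1 of 0.0442 (0.0339 to 0.0566). Fkbp11 had 3 UMIs and a ratio of 0.0371 (0.00763 to 0.109), and Derl3 2 UMIs and 0.0390 (0.00470 to 0.142). Xbp1 had a ratio of 0.719 (0.663 to 0.779), Atf6 of 0.396 (0.336 to 0.464) and Ddit3 of 0.450 (0.413 to 0.491).

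Along the neutrophil stages, 26 of the 42 genes were highest in azurophil progenitor-like cells, against 13.4% of all genes, and 21 were lower at every step from there through the immature and intermediate stages to mature neutrophil-like cells. Over the 11216 genes with enough UMIs, 18.4% were lower at every step and 14.4% higher at every step, which 0 of the 42 genes were. Sdf2l1 had 137, 9.68, 2.75 and 2.54 CPM over the azurophil, immature, intermediate and mature stages. Manf had 305, 89.8, 40.4 and 12.1 CPM over the same stages. Xbp1 had 142, 71.7, 50.6 and 31.5 CPM. For these genes the azurophil stage stood clear of the rest. Ssr2, Pdia6 and Pdia4 were 14.5-fold, 14.7-fold and 23.5-fold higher in the azurophil than in the mature stage.

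Ddit3 ran the other way. It had 66.5, 59.9, 87.9 and 289 CPM over the azurophil, immature, intermediate and mature stages, and its mature level was the highest of the 19 classes. It differed within the mature class, at 461 and 142 CPM in its 2 clusters. Thinned to 1000 UMIs, Ddit3 was seen in 26.1% (23.6% to 28.7%) of mature neutrophil-like cells and 0.739% of late erythroid-like cells, and without thinning in 42.5% and 7.35%, at median depths of 2196 and 6168 UMIs. Atf4, which induces Ddit3, had 249, 468, 530 and 435 CPM over the same stages. Derl1 was also highest in the mature stage, at 97.3 CPM. Hyou1 had 22.9 CPM in the azurophil and 24.8 CPM in the mature stage. Mzb1 had 4.61, 6.77, 6.14 and 21.0 CPM over the same stages, over which B-lineage markers summed to 130, 161, 183 and 435 CPM, and their part in the result was not tested. Edem1 was highest in the immature stage, at 79.6 CPM.

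**Figure D5:**
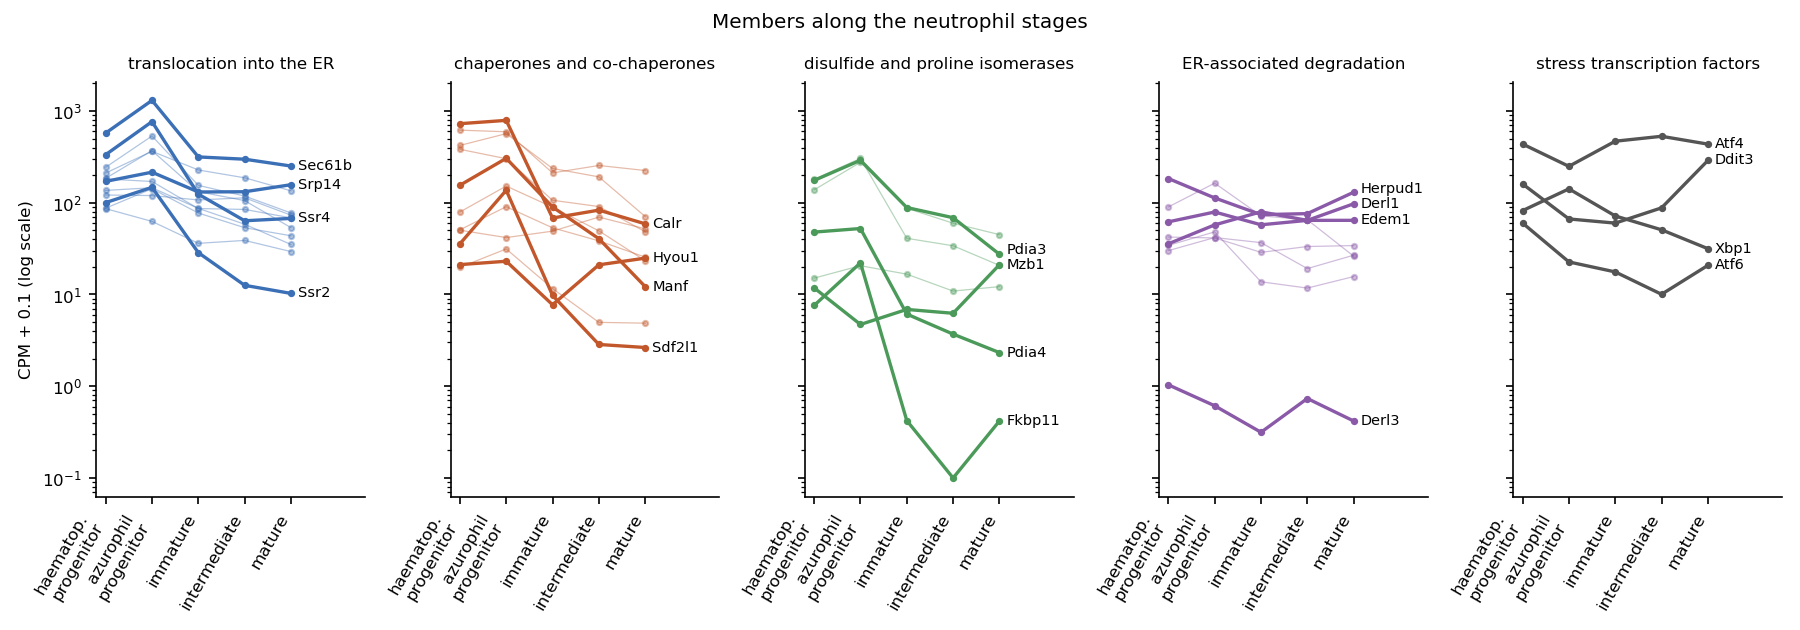
CPM plus 0.1 (log scale) of the 42 genes over 5 stages of neutrophil formation, 1 panel per role, with named genes in bold. Most lines peak at the azurophil stage, while Ddit3 is highest in mature neutrophil-like cells at 289 CPM.

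Set against mature neutrophil-like cells, immature cells had 14 of 40 genes with enough UMIs at least 2-fold higher (35.0%) and 3 at least 2-fold lower (7.50%), against 27.1% and 21.2% of all genes. The share of higher genes was thus near the background. The median log2 ratio was 0.65 for the 40 genes and 0.15 for all genes. Chaperones accounted for 7 of the 14. Manf had 89.8 CPM in immature and 12.1 CPM in mature neutrophil-like cells, 7.43-fold higher (5.37 to 10.6). Dnajc3 had 89.3 CPM in immature and 23.2 CPM in mature cells, 3.85-fold higher (3.03 to 4.96), Sdf2l1 9.68 and 2.54 CPM, 3.80-fold (1.85 to 9.08), and Hsp90b1 236 and 70.6 CPM, 3.35-fold (2.91 to 3.86). The other high ratios were Pdia3 at 3.24 (2.59 to 4.09), Ssr2 at 2.80 (1.94 to 4.18), Selenos at 2.76 (2.19 to 3.51) and Pdia4 at 2.70 (1.23 to 7.03). Of the stress factors, Xbp1 was 2.28-fold higher (1.84 to 2.84), Atf4 had a ratio of 1.08 (1.01 to 1.14) and Atf6 of 0.848 (0.632 to 1.15). The low end held Ddit3 at 0.207 (0.186 to 0.231), Hyou1 at 0.308 (0.220 to 0.430), Mzb1 at 0.323 (0.225 to 0.463) and Herpud1 at 0.570 (0.503 to 0.645). Derl3 and Fkbp11 had too few UMIs in both classes to compare.

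On the scale of all UMIs, several genes were highest outside the classes named so far. Sec61g was highest in late erythroid-like cells, at 746 CPM, and next in osteoblast-like cells, at 536 CPM. The other channel subunits were at their lowest there, with Sec61b at 46.8 CPM and Sec61a1 at 7.31 CPM. With immunoglobulin and haemoglobin genes left out, Sec61a1 was lowest in mature neutrophil-like cells instead, at 29.6 CPM beside 30.9 CPM in late erythroid-like cells. Calr was highest in basophil-like cells, at 1025 CPM, and Canx in macrophage-like cells, at 479 CPM. Ero1lb was highest in mature B-like cells, at 118 CPM, against 58.8 CPM in plasma-like cells. Hyou1 had 59.7 CPM in plasmacytoid dendritic-like cells and 58.8 CPM in plasma-like cells, which the intervals do not separate. Xbp1 was next highest after plasma-like cells in plasmacytoid dendritic-like cells (347 CPM) and monocyte-like cells (184 CPM). Atf4 was highest in monocyte-like cells (558 CPM) and Derl2 in natural killer cell-like cells (55.5 CPM). Srp14 and Tram1 were highest in pro-B and pre-B-like cells, at 226 and 308 CPM. For Canx, Atf4, Derl2, Srp14 and Tram1 the interval also overlapped that of the next class. Once immunoglobulin and haemoglobin genes were left out, plasma-like cells came first for each of these genes apart from Sec61g and Canx.

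The ratios were also read by promoter element. The 9 genes with the element had a median log2 ratio of 2.03 against all other cells, with 7 at least 2-fold higher, and the other 25 with a promoter sequence a median of 1.72, with 17 higher. Against other B-lineage cells the medians were 2.14 for genes with the element and 1.40 for the others, with 6 of 9 and 17 of 25 higher. In osteoblast-like cells the medians were 0.06 for genes with the element and 0.55 for the others, with 2 of 9 and 9 of 25 higher. Over all genes the medians were, in the same order of comparisons, -0.76, -1.28 and -0.13, with 8.16%, 6.19% and 25.6% higher. The counts in osteoblast-like cells lay on either side of that last share, and no contrast by element is read from them. Derl3, Creld2 and Hsp90b1, printed above, had ratios of 164, 14.7 and 8.19 in plasma-like cells, while Canx, with the same element, had a ratio of 0.865.

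Related genes outside the 42 were read from 7 further lists, against all other kept cells. In these comparisons, 41.7% of all genes were lower in plasma-like and 27.5% in osteoblast-like cells. The shares of higher genes were 8.16% of all genes in plasma-like and 25.6% in osteoblast-like cells. Counts in osteoblast-like cells near that share, such as 3 of 18, are no result about a list. The list ratios are on the scale of all UMIs, where the median log2 ratio over all genes was -0.76 in plasma-like cells. Without immunoglobulin and haemoglobin genes that median was 0.15. Ratios below 1 and counts of lower genes in plasma-like cells therefore depend on the scale, and the lists were not read on the other scale. Of 12 other genes of ER entry, 5 were at least 2-fold higher in plasma-like cells and 1 in osteoblast-like cells. Tram2, a relative of Tram1, had ratios of 10.3 in plasma-like and 2.22 in osteoblast-like cells, and Sec11c, a catalytic subunit of signal peptidase, 5.53 and 0.444. Sec62 (0.824) and Sec11a (0.808) were lowest in plasma-like cells, and in osteoblast-like cells Srp54a stood at 1.78 and Spcs3 at 0.706.

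N-glycosylation gave 8 of 15 genes higher in plasma-like cells and 6 of 15 in osteoblast-like cells. The oligosaccharyltransferase subunits Krtcap2 (4.86) and Rpn1 (3.84) led in plasma-like cells, and Ostc (5.69) and Dad1 (3.23), subunits of the same enzyme, led in osteoblast-like cells. Uggt1, which marks unfolded glycoproteins for another round with the lectins, was below 1 in both on the scale of all UMIs, at 0.458 and 0.294. Stt3b stood at 0.682 in plasma-like cells and Man1a at 0.0892 in osteoblast-like cells.

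Of 17 other folding genes, 7 were higher in plasma-like cells, 3 were lower and 8 were higher in osteoblast-like cells. Txndc5, a disulfide isomerase, had 1445 CPM in plasma-like cells and 25.8 CPM in the others, 55.9-fold higher (52.1 to 60.1), and Prdx4, an ER peroxiredoxin, was 8.32-fold higher. In osteoblast-like cells the proline isomerases Fkbp14 (18 UMIs) and Fkbp7 (124 UMIs) were 306-fold (140 to 698) and 117-fold (92.9 to 146) higher. Tmx4, a membrane thioredoxin, was low in both, at 0.211 and 0.272, with Qsox1 at 0.386 in plasma-like cells and Ero1l at 0.143 in osteoblast-like cells. Of 12 other degradation genes, 4 were higher in plasma-like cells and 1 in osteoblast-like cells. The lectin Erlec1 led in both, at 5.33 and 3.73, followed by Ube2j1, a ubiquitin-conjugating enzyme, at 3.52 in plasma-like cells and Os9 at 1.27 in osteoblast-like cells, while Ufd1 stood at 0.751 in plasma-like cells, and Syvn1 (0.572) and Nploc4 (0.649) were lowest in osteoblast-like cells.

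The sensors and the PERK and ATF4 arm gave 4 of 18 genes higher and 5 lower in plasma-like cells, and 3 higher and 3 lower in osteoblast-like cells. Atf5 (3.47) and Chac1 (2.87), both ATF4 targets, led in plasma-like cells. Nupr1, a stress-induced chromatin protein, had 1626 CPM in osteoblast-like cells and 12.9 CPM in the others, 127-fold higher (114 to 141), but 3 UMIs and a ratio of 0.159 (0.0327 to 0.466) in plasma-like cells. Atf3 was 10.8-fold higher in osteoblast-like cells. Slc7a11, a cystine transporter and ATF4 target, had 1 UMI in plasma-like cells and 0 in osteoblast-like cells, against 71.6 and 71.1 CPM in their other cells, and Ppp1r15b had a ratio of 0.286 in osteoblast-like cells.

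Vesicle coats and cargo receptors gave 7 of 25 genes higher in plasma-like cells and 16 of 25 (64.0%) in osteoblast-like cells. Lman1, a cargo receptor from the ER to the Golgi, was 8.24-fold higher in plasma-like and 8.66-fold higher in osteoblast-like cells. Kdelr2, which returns ER residents, was 8.01-fold higher in osteoblast-like cells and Sec24a, a coat subunit, 3.64-fold higher in plasma-like cells. Sec24b (0.357) and Copz1 (0.574) were lowest in plasma-like cells, and Preb (0.666) and Sec23b (0.758) in osteoblast-like cells.

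The collagen-handling genes divided the classes most, with 13 of 15 (86.7%) higher in osteoblast-like cells and 4 of 15 (26.7%) in plasma-like cells. The 6 of 15 (40%) that were lower in plasma-like cells were near the 41.7% of all genes and are no result about the list. Serpinh1, the collagen chaperone HSP47, had 2634 CPM in osteoblast-like cells and 2.83 CPM in the others, 929-fold higher (798 to 1087), but 2 UMIs in plasma-like cells. Fkbp10, a collagen proline isomerase, had 457 CPM in osteoblast-like cells and 0.556 CPM in the others, 822-fold higher (579 to 1194), and 0 UMIs in plasma-like cells. Plod3 (1.46) and Colgalt1 (0.583), which modify collagen lysines, were the genes that did not pass 2-fold in osteoblast-like cells. In plasma-like cells the highest were Creb3l2, a membrane-bound transcription factor, at 11.8-fold and Kdelr3 at 9.32-fold, on 76 and 10 UMIs.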

How the data were processed

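The deposited values are raw UMI counts that the authors made with Cell Ranger 3.1.0, per the file headers. Seurat 3 and mm10 are also named in the submitters' processing notes, without a stated role. The files' gene positions were read from GENCODE vM21 (GRCm38). A second deposited matrix of added sequences was not used here.

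Cells needed 500 UMIs, 200 genes and no more than 10% mitochondrial UMIs, which removed 1335 barcodes for few genes and 2672 for mitochondrial share. Scrublet in scanpy 1.11.5 marked 522 of 11007 barcodes (4.74%) as doublets, which were removed. The 2000 most variable genes, without the 42 genes and the 7 further lists, gave 30 principal components and 15 nearest neighbours for Leiden clustering (leidenalg 0.10.2, resolution 1.0, seed 0). Scripts ran in Python 3.11.15 with scipy 1.17.1, igraph 0.11.9, pandas 2.3.3, matplotlib 3.10.9, numpy 2.4.6, scikit-learn 1.9.0 and anndata 0.12.19. A cluster took the name of the marker list (of 32) with the most markers at 2 times the CPM of other cells and seen in at least 10% of its cells, given at least 3. It stayed unnamed when 5 or more markers of another lineage were raised, or when its median depth was below 0.333 of the library's without an own marker among its 10 leading genes. This left 223 cells unnamed. The naming rule was set after the clusters had been seen, and names rebuilt this way may differ from the study's.

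Class sums of counts were turned into CPM with exact Poisson intervals, ratios with exact conditional binomial intervals and shares with exact Clopper-Pearson intervals, each at 95% and limited to counting error. Log2 ratios had 0.5 counts added per side, and a gene was compared with at least 20 UMIs over both sides. "Higher" and "lower" counts mean past 2-fold, since 1 library allows no test. Levels are 3′ counts and were compared between classes, not between genes. The counting procedures were tested on simulated data. The members and lists were chosen with earlier results of these data known. All 42 genes are named, with full values for the 8 largest and 4 smallest log2 ratios of each comparison and for Xbp1, Atf4, Atf6 and Ddit3, and for each further list the 2 highest and 2 lowest genes in the plasma-like and osteoblast-like comparisons, apart from 1 gene that is not reported here. The comparison of plasma-like with osteoblast-like cells, the ERSE-II motif, the class ranks without immunoglobulin and haemoglobin genes and the heavy chain levels without 1 cell were added after the data had been seen. Ero1lb was matched to RefSeq as Ero1b.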

Additional observations from a re-analysis of the deposited data

How the results depend on the processing

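Plasma-like cells had 25 to 38 of the 42 genes at least 2-fold higher than all other kept cells over 16 alternatives. Against other B-lineage cells they had 23 to 36 over 15. The shares of all genes that were higher ran from 4.97% to 34.2% and from 3.73% to 27.1%. Immature neutrophil-like cells had 0 higher than all other kept cells in all 15, beside 2.25% to 13.6% of all genes. Osteoblast-like cells (13 higher) had 8 without the 50 most abundant genes (19.5% of all genes). They had 5 with a mitochondrial limit of 5% (18.9%), 5 with 30% (17.4%) and 7 with at least 1500 UMIs (19.0%). They had 7 at resolution 0.5 (19.4%) and 6 at a fold of 3 (17.8%). With the other classes weighted equally, an alternative chosen after seeing the data, they had 8 (21.7%). In each of these settings the share of the 42 genes was below that of all genes. The median log2 ratio in osteoblast-like cells turned to -0.054 without the 50 most abundant genes and to -0.075 with equal weights (all genes -0.57 and -0.27). The class itself changed with the filters, to 67, 231, 59 and 118 cells for the limits of 5% and 30%, for 1500 UMIs and for resolution 0.5. At resolution 0.5, 104 of the 118 came from the marrow stromal-like class. Plasma-like cells numbered 43 to 49. Azurophil progenitor-like cells (14 higher) had 24 at a fold of 1.5 (15.8% of all genes), 9 at a fold of 3 (2.80%) and 8 with equal weights (6.30%). Immature against mature neutrophil-like cells (14 higher) had 5 of 40 at a fold of 3, beside 16.2% of all genes. Without immunoglobulin and haemoglobin genes the share of UMIs was 4.58% in plasma-like, 0.945% in azurophil progenitor-like and 0.680% in late erythroid-like cells. Thinned to 2000 UMIs, Derl3 was seen in 43.8% and Mzb1 in 95.8% of plasma-like cells (12.5% and 77.1% at 1000), and Sdf2l1 in 22.8% of azurophil progenitor-like cells (5.64% at 500, 9.38% at 1000). The cause of these changes was not tested, apart from the folds and depths, which move the counts by construction. No paired analysis was possible because the 4 records form 1 group in 1 matrix, and leaving out records was not possible for the same reason.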

Other observations

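Plasma-like cells could be divided by their most abundant heavy chain gene, a division taken from the data and not from the labels. Igha led in 38 cells, Ighg2b in 6, Ighg2c in 4 and Ighg1 in 1. The 42 genes made up a median of 4.13% of UMIs outside immunoglobulin and haemoglobin genes in Igha cells, 5.69% in Ighg2b cells and 5.07% in Ighg2c cells, and 10.8% in the Ighg1 cell. Hspa5, which encodes BiP, had 958 CPM in Igha cells, 3857 CPM in Ighg2b cells, 1647 CPM in Ighg2c cells and 8156 CPM in the Ighg1 cell. A single cell gave 260 of the 335 Hspa5 UMIs of the Ighg2b cells and, without it, their level was 1390 CPM. Likewise, 1 cell gave 77 of the 148 Hspa5 UMIs of the Ighg2c cells, which had 937 CPM without it, against 904 CPM in Igha cells without their highest cell. Herpud1 had 536, 2142, 857 and 2342 CPM in Igha, Ighg2b, Ighg2c and Ighg1 cells, and Manf 522, 1785, 757 and 3957 CPM. Without the same Ighg2b cell, Ighg2b cells had 1742 CPM of Herpud1 and 1075 CPM of Manf. This Herpud1 level rested mainly on single cells with 53 and 35 UMIs, and the remaining Ighg2b cells had 6, 0 and 0. Xbp1 had 1501 CPM in Igha, 1416 CPM in Ighg2b, 1636 CPM in Ighg2c and 1292 CPM in the Ighg1 cell. The median immunoglobulin share was 62.4% in Igha cells, 42.9% in Ighg2b cells, 45.6% in Ighg2c cells and 36.1% in the Ighg1 cell, so the CPM scale differed between them. Cells of 1 library are not replicates, and no test was made.

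RNA of plasma cells in other droplets was read from Jchain, the antibody joining chain. It had 63671 CPM in plasma-like cells, 8.90 CPM in late erythroid-like cells and 0 UMIs in osteoblast-like cells. Per 100 Jchain UMIs there were 3.73 Mzb1 UMIs in plasma-like cells, 2520 in pro-B and pre-B-like cells and 384 in late erythroid-like cells.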
